A study of Mus musculus with 32 samples.

Results

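Iron enters, is stored in, and leaves a cell through a small set of proteins, and MΦs have another source in digesting red cells and other heme-bearing material. The genes described here encode 10 proteins of heme and iron handling: the heme transporter *Slc48a1*, the heme-degrading enzyme *Hmox1*, the biliverdin reductase *Blvrb*, the ferritin subunits *Fth1* and *Ftl1*, the iron exporter *Slc40a1*, the ferroxidase *Cp*, and the iron importers *Tfrc*, *Slc11a2*, and *Slc11a1*. They were taken by name, 10 of the 22850 genes in the expression table, and all 10 passed the filter on low scores in each comparison.

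In a MΦ, heme freed in the phagolysosome is carried into the cytosol by SLC48A1 (HRG1) and opened by heme oxygenase 1, which releases iron and leaves biliverdin for reduction to bilirubin. The iron is caged in ferritin shells of heavy and light chains, or leaves through ferroportin (SLC40A1) and is oxidized by ceruloplasmin for loading onto transferrin. Most other cells take iron up as transferrin through the transferrin receptor and move it out of the endosome through SLC11A2 (DMT1), while SLC11A1 (NRAMP1) moves metal ions out of phagosomes of myeloid cells. Heme induces *Hmox1*, *Slc40a1*, and *Spic* by displacing the repressor BACH1, and cellular iron acts on ferritin, ferroportin, and transferrin receptor mRNAs through iron-responsive elements.

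The cells came from islets of adult βVEGF-A; MIP-GFP mice of C57BL/6 stock, and every group, controls included, carried the same MIP-GFP; RIP-rtTA; TetO-VEGF-A transgenes. RIP stands for rat insulin II regulatory sequence, which limits the transactivator rtTA to β cells, so that human VEGF-A165 is made there only while doxycycline (Dox) is given. MIP is the mouse insulin I counterpart, here placed ahead of GFP. Mice had no Dox (No Dox), 1 week of Dox (1wk Dox), or 1 week of Dox and then 1 week of withdrawal (1wk WD), and the comparison follows the islet as VEGF-A is raised and as it returns to normal. β cells (GFP+) had 4, 5, and 3 samples at these times, endothelial cells (ECs, CD31+) had 4, 1, and 5, and macrophages (MΦs, CD11b+) had 4, 2, and 4. Each sample pooled islets of several mice and is called a biological replicate in the study, but nothing ties a sample to a cage, litter, or sorting day, so p-values measure only the spread between these samples. Column identifiers stand apart in number for both 1wk Dox MΦ samples, the 1wk Dox EC sample, and 1wk WD β cell replicate 3. What this reflects is not stated, and in MΦs it cannot be told apart from 1wk Dox. Because the induced VEGF-A is human, the mouse genes give no check of induction.

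Of the 10 genes, 4 carry the letters of an iron-responsive element, the hairpin to which iron regulatory proteins bind when iron is low. An element in the 5′ UTR then holds back translation, and elements in the 3′ UTR protect the mRNA from decay. They are shown because they place the members on opposite sides of that control, as read from GENCODE M1 transcripts on mm9 and each equal to the genome there. The search was for an unpaired C, 5 bases, the loop CAGTGN, and 5 bases that pair with the first 5, on the transcript strand only, and it matched 279 of 22611 gene names (1.23%). Capitals mark the 6 loop bases. *Fth1* (ENSMUST00000025563, chr19:10057223-10057249, plus strand), *Ftl1* (ENSMUST00000094434, chr7:52715150-52715176, minus strand), and *Slc40a1* (ENSMUST00000027137, chr1:45982311-45982337, minus strand) have theirs in the 5′ UTR in exon 1, and *Tfrc* (ENSMUST00000023486, plus strand) has 4 in the 3′ UTR in exon 19, at chr16:32631306-32631332, chr16:32631685-32631711, chr16:32631750-32631776, and chr16:32631797-32631823.
Fth1: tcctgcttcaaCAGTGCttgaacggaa
Ftl1: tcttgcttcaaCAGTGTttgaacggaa
Slc40a1: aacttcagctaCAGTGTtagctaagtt
Tfrc 1: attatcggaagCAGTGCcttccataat
Tfrc 2: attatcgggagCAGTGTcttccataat
Tfrc 3: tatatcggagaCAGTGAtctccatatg
Tfrc 4: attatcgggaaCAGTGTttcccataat
The other 6 members had no such match in their annotated transcripts, and of the other 56 pathway genes looked at below, 2 did (*Alas2* in its 5′ UTR and *Keap1* in its coding sequence). A match is a description of letters, and no match says only that these letters are not in the transcripts searched.

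Values are scores, the authors' whole-number normalized expression, of which the lowest is 1. They are not per length, so levels are compared between samples and never between genes, and differences are given on the log2(score + 1) scale with their standard error (SE). A gene is called higher or lower here where its groups differed at least 2-fold and its adjusted p (Benjamini-Hochberg, over all genes tested with limma) was under 0.05. The summed scores of a sample ran from 23465985 to 53441769, and the read depth behind them is unknown. Lists of marker genes, averaged as log2(score + 1) into an index per sample, fitted the sorted cell types: the endothelial index was 15.17 to 15.69 in ECs (9 of 9 genes found), and the macrophage index 14.07 to 15.15 in MΦs, with 9 of its 10 listed genes found. Markers of other cells were high in several samples. Pericyte and stromal genes had an index of 5.4 and 4.52 in No Dox β cell replicates 1 and 2 but 13.19 and 14.74 in replicates 3 and 4 (8 of 8 genes found), and the acinar index was highest in the same replicates 3 and 4 (20.22 and 19.6, 7 of 7 found). It was also high in No Dox MΦ replicates 2 and 4 (19.92 and 17.44) and in No Dox EC replicate 2 (17.2). GC-rich genes were low against GC-poor ones in 1wk WD EC replicates 3 and 4 (-0.47 and -0.88 on the log2 scale, the genes highest in transcript GC content minus the lowest, 1386 or more genes each) and in No Dox MΦ replicate 3 (-0.83). Of 11 listed erythroid genes 8 were found. The highest-scoring globin gene, *Hbb-b1*, reached 633 in β cells, 410 in MΦs, and 204 in ECs, and *Hba-a2* reached 190, 169, and 43. In all bulk samples, fewer cells of a type and less RNA per cell cannot be told apart.

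At No Dox, MΦs were called higher than both other cell types for *Hmox1*, *Blvrb*, *Slc11a1*, *Fth1*, and *Ftl1*, and ECs for *Slc48a1*. Among the 10 genes, 7 were called higher and 1 lower in MΦs than in ECs, where 20.8% of 15288 genes were called higher and 18.8% lower. Against β cells, 5 were higher and 1 lower in MΦs (18.1% and 20.7% of 16133 genes), and in ECs against β cells 1 was higher and 2 were lower (16.2% and 21.4% of 15896 genes).

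*Slc11a1* separated the cell types most widely of the members. It scored 5166, 5452, 5308, and 6535 in MΦs, 46, 29, 37, and 37 in ECs, and 58, 35, 55, and 188 in β cells. No MΦ sample came near the others, and the difference was 7.21 (SE 0.19, 148-fold, adjusted p = 1.88e-09) over ECs and 6.34 over β cells. *Hmox1* scored 2466, 3422, 2531, and 3270 in MΦs, 169, 250, 269, and 273 in ECs, and 169, 38, 87, and 188 in β cells. MΦs were 12.2-fold above ECs (adjusted p = 1.85e-07) and 28.2-fold above β cells (0.000146), while ECs and β cells met at 169 and differed by 1.21, which was not called (adjusted p = 0.0836). *Blvrb*, biliverdin reductase B, gave the same order, with 1330, 1279, 1174, and 1404 in MΦs, 303, 224, 317, and 263 in ECs, and 52, 102, 134, and 308 in β cells. The MΦ level was 4.70-fold that of ECs and 10.5-fold that of β cells, both called, and ECs and β cells overlapped.

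Both ferritin genes were likewise highest in MΦs. *Fth1* (heavy chain, which oxidizes the iron it takes in) scored 43119, 48978, 70028, and 80513 in MΦs, 4361, 5335, 6546, and 5035 in ECs, and 5029, 4724, 9146, and 9901 in β cells. *Ftl1* (light chain) scored 21134, 28796, 15865, and 35432 in MΦs, 3995, 5340, 5586, and 4468 in ECs, and 7093, 5410, 6979, and 7373 in β cells. MΦs were above ECs 11.2-fold for *Fth1* and 5.03-fold for *Ftl1*, and above β cells 8.62-fold and 3.63-fold. Both genes have many processed pseudogenes, and how the authors' counting treated reads that fit several copies is not stated, so these scores are uncertain.

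The exporter *Slc40a1* was low in ECs rather than high in MΦs alone. It scored 1877, 2459, 4332, and 1996 in MΦs, 187, 189, 172, and 216 in ECs, and 3369, 3038, 1117, and 581 in β cells. MΦs and β cells overlapped and were not called apart (0.65, SE 0.57, adjusted p = 0.382), whereas ECs lay below MΦs (13.1-fold higher in MΦs, adjusted p = 9.87e-07) and below β cells (0.119-fold, 0.00183). Without the pericyte- and acinar-rich β cell replicates 3 and 4, the log2 difference from β cells was -4.06 in ECs and -0.35 in MΦs. *Tfrc*, the transferrin receptor, was highest in β cells, with 2849, 2804, 2192, and 819 in β cells, 376, 584, 442, and 468 in MΦs, and 272, 234, 251, and 184 in ECs. No β cell sample reached down to the other cells, and MΦs were at 0.238-fold (adjusted p = 0.00322) and ECs at 0.12-fold (0.000361) of the β cell level. Between MΦs and ECs, *Tfrc* differed by 0.98 (adjusted p = 0.0035), just short of the fold needed, and was called without EC replicate 1 or 3 or MΦ replicate 1 or 3 (1.01 to 1.08).

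*Slc48a1* went the other way from *Hmox1* and *Blvrb*. Its scores were 2586, 2511, 2518, and 2449 in ECs, 866, 1182, 543, and 1189 in MΦs, and 898, 435, 872, and 928 in β cells. ECs lay above all other No Dox samples, 3.35-fold over β cells (adjusted p = 0.000551), and MΦs were at 0.359-fold of ECs (0.00039). MΦs and β cells overlapped, with a difference of 0.27. *Hdac7* overlaps it by 29 bases on the opposite strand and scored 6780 to 11324 in ECs and 429 to 898 in MΦs. Whether the library kept strand is not stated, and reads of such partners cannot then be told apart.

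*Slc11a2* differed least, with 1618, 1698, 2768, and 1449 in MΦs, 1194, 1105, 1300, and 1027 in ECs, and 1391, 2711, 1508, and 1431 in β cells. No pair of cell types was called. *Cp* scored 1640, 2141, 1319, and 1290 in MΦs and 120, 299, 236, and 294 in ECs, a 6.97-fold difference that was called. In β cells it scored 22, 5, 4189, and 9438, a spread wider than any difference between cell types above. The pair of low values came from the 2 β cell samples with few pericyte genes, and when replicates 3 and 4 were left out, ECs were higher than β cells by 4.26 (adjusted p = 0.000608) where the full comparison gave -0.28. *Hps3* overlaps *Cp* by 13201 bases on the opposite strand and scored 4083 to 5951 in MΦs, 1018 to 1680 in ECs, and 680 to 2844 in β cells over all times, so it too was higher in MΦs than in ECs, and its part in the *Cp* scores was not tested. Without β cell replicate 4, whose macrophage index was 8.08, *Hmox1* (1.504, adjusted p = 0.0354) and *Blvrb* (1.61, 0.00694) were also called higher in ECs than in β cells, and 5 rather than 3 genes were called.

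**Figure D1:**
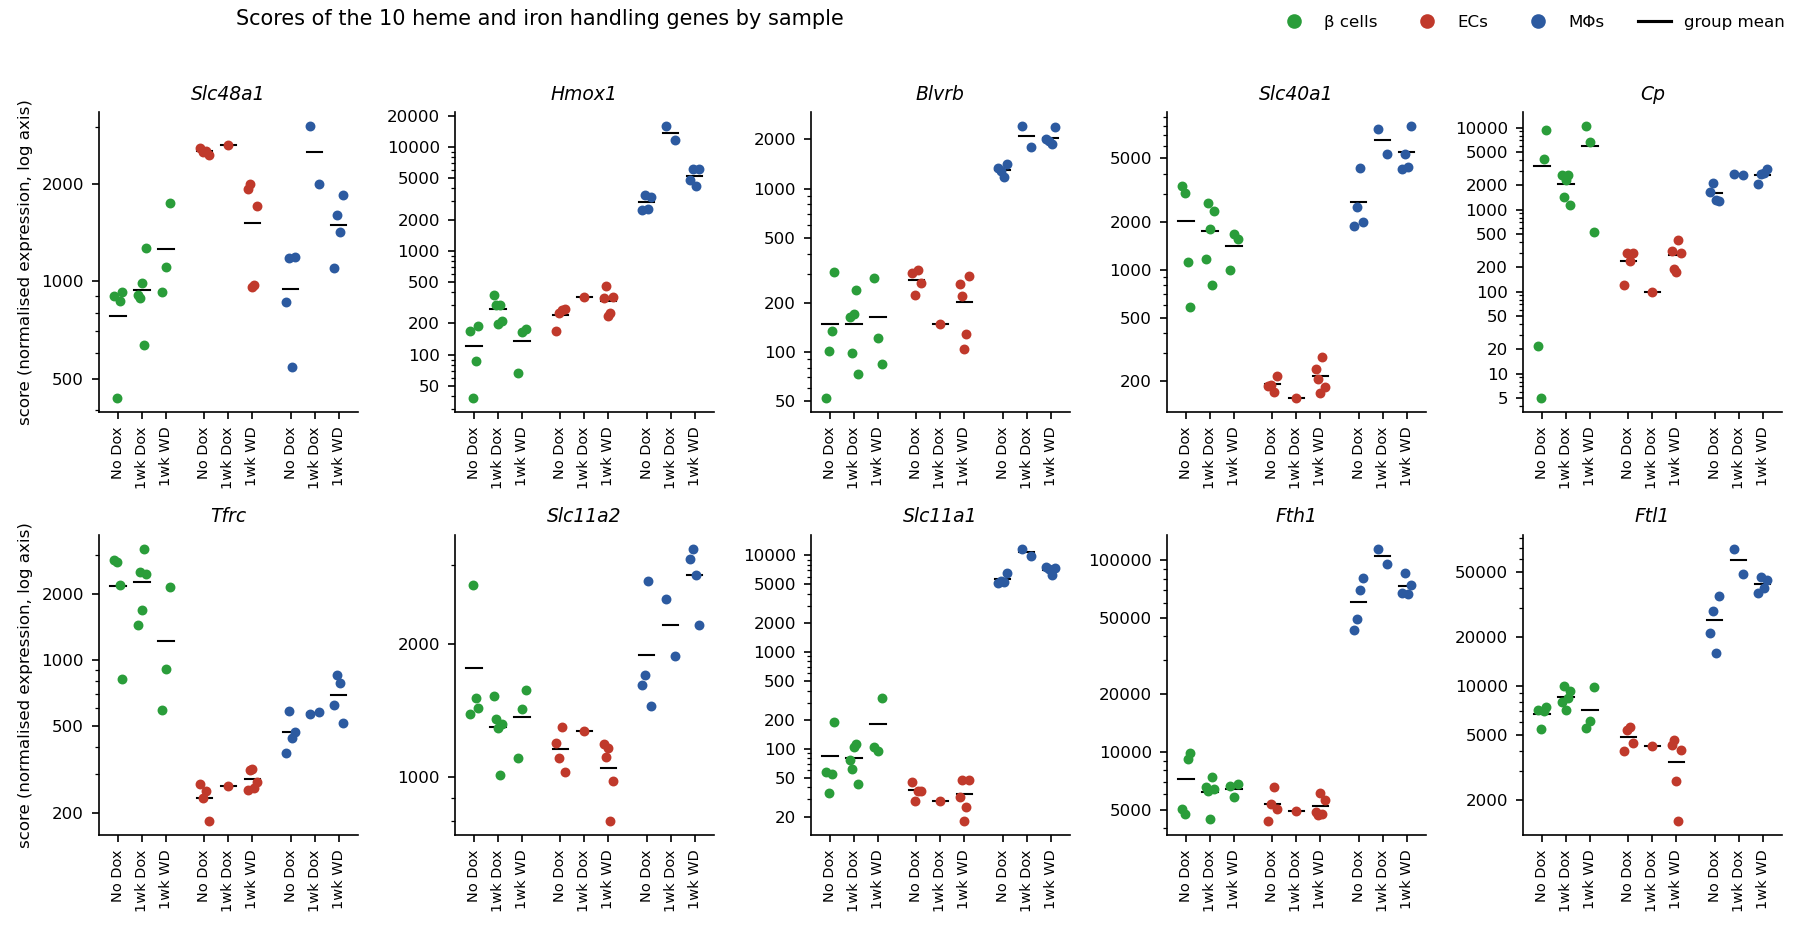
Scores of the 10 genes in every sample (log axis), by cell type and time point, with a point for each sample and a line at each group mean. MΦs sit above ECs and β cells for Hmox1, Blvrb, Slc11a1, Fth1, and Ftl1 at all times, ECs are above the other No Dox samples only for Slc48a1, and Cp in β cells runs from 5 to 10481.

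Other genes of the pathway were taken from 7 lists (heme synthesis, heme breakdown and transport, heme-responsive transcription factors, iron uptake, iron storage and export, iron sensing, and mitochondrial iron), in which 56 of the 59 genes other than the members were found. At No Dox 51 of them were tested between MΦs and ECs, and 10 were called higher and 5 lower in MΦs, where 20.8% and 18.8% of all genes were. The scavenger receptor for hemoglobin-haptoglobin, *Cd163*, scored 6247 to 8777 in MΦs and 7 to 50 in ECs, 8.50 higher in MΦs and 7.48 with a pseudocount of 20. *Spic*, a transcription factor of red pulp MΦs, scored 544 to 1903 in MΦs and 1 to 4 in ECs, at or near the lowest score, so that no size is given for its difference. The hemopexin-heme receptor *Lrp1* was higher by 6.76 and transferrin (*Trf*) by 6.46. ECs instead had the ferroxidase hephaestin, *Heph* (733 to 840 against 1 to 15 in MΦs), and *Bmp6*, the ligand that calls for hepcidin from the liver (6197, 3775, 3132, and 4789 against 59, 103, 3, and 37). The 2 cell types thus differed in which of these multicopper ferroxidases was higher, *Cp* (with the overlap of *Hps3* given above) in MΦs and *Heph* in ECs. Against β cells, 11 were higher and 8 lower of 53 tested in MΦs (18.1% and 20.7% of all genes), and 6 higher and 9 lower of 51 in ECs (16.2% and 21.4%). The metalloreductase *Steap2* (1416 to 3916 in β cells, 2 to 19 in MΦs, and 9 to 18 in ECs) and the heme synthesis genes *Urod* and *Uros* were lower in both other cell types than in β cells, though *Uros* was not called in MΦs without β cell replicate 2 (-0.95).

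At 1wk Dox, 1 gene each of heme import (*Slc48a1*), heme breakdown (*Hmox1*), iron storage (*Ftl1*), and iron export (*Slc40a1*) was called higher in MΦs. All 10 genes were higher on average than at No Dox, and these 4 were called, where 1.61% of 15014 genes were called higher and 0.653% lower. The median change of the 10 was 0.887, against 0.035 over all genes tested. Both 1wk Dox samples exceeded all 4 No Dox samples for 8 of the 10, as for 16.2% of all genes. The paper reports that MΦs are recruited to islets from circulating monocytes under Dox, so MΦs of different times need not be the same cells. The monocyte and neutrophil index was 10.68 and 10.54 at 1wk Dox and 10.61 to 11.05 at No Dox. The part of recruitment in these differences was not tested.

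*Hmox1* scored 15859 and 11589 at 1wk Dox against 2466 to 3422 at No Dox (13720 ± 3019, SD, n = 2, against 2922 ± 493.9, n = 4). Both samples were far above every No Dox sample, and the rise was 2.23 (SE 0.21, 4.69-fold, adjusted p = 0.000805). *Slc48a1*, which supplies the enzyme with heme from the phagolysosome, scored 3015 and 1998 against 543 to 1189. It rose by 1.44 (SE 0.31, 2.72-fold, adjusted p = 0.0249), and its 2 scores lay on either side of those of No Dox ECs. *Blvrb* scored 2412 and 1801 against 1174 to 1404, higher by 0.69 (SE 0.17, adjusted p = 0.0402) but short of 2-fold. The adjusted p alone was passed on the higher side by 6 of the 10 genes and by 2.7% of all genes.

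One gene each of iron storage and iron export was called as well. *Ftl1* scored 69295 and 48526 against 15865 to 35432 at No Dox, and rose by 1.26 (SE 0.27, 2.40-fold, adjusted p = 0.0249). *Fth1* scored 114662 and 95582 against 43119 to 80513, above every No Dox sample, but its difference of 0.83 (SE 0.25) was not called (adjusted p = 0.0756). *Slc40a1*, the only known exporter of iron, scored 7577 and 5344 against 1877 to 4332 and rose by 1.34 (SE 0.32, 2.53-fold, adjusted p = 0.0372). The ferroxidase *Cp* scored 2747 and 2658 against 1290 to 2141, a difference of 0.79 (SE 0.22) that was not called (adjusted p = 0.0614).

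Of the importers, the phagosomal *Slc11a1* differed most. Its scores of 11697 and 9842 lay above the No Dox range of 5166 to 6535, by 0.94 (SE 0.15, 1.92-fold, adjusted p = 0.0085), again short of 2-fold, and the gene was called without No Dox replicate 4 (1.02). The 2 genes of the transferrin route overlapped between the groups and gave no call. *Tfrc* scored 567 and 578 against 376 to 584 (0.31, SE 0.26, adjusted p = 0.535), and *Slc11a2* scored 2525 and 1880 against 1449 to 2768 (0.26, SE 0.25, 0.604). Set beside the iron-responsive elements above, the genes with one in the 5′ UTR differed by 1.34 (*Slc40a1*), 1.26 (*Ftl1*), and 0.83 (*Fth1*), and *Tfrc*, with its elements in the 3′ UTR, by 0.31. *Alas2*, the erythroid heme synthesis enzyme and the other gene with one in the 5′ UTR, scored 51 and 49 against 96, 43, 88, and 102 at No Dox (-0.63, SE 0.53, adjusted p = 0.539). Elements in the 5′ UTR act on translation, which mRNA scores do not measure. Whether iron acted on any of these mRNAs was not tested.

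These calls rest on 2 samples, whose column identifiers stand apart in number from those of all other MΦ samples. Without 1wk Dox replicate 4 none of the 10 was called (*Hmox1* 2.00, adjusted p = 0.0806), and without 1wk Dox replicate 5, or without No Dox replicate 1, *Hmox1* alone was. The same single call was left with no filter on low scores, with no trend of the spread, or with only the 2 groups in the fit. *Slc40a1* was also not called without No Dox replicate 4 (1.23, adjusted p = 0.0664). The macrophage index, 15.15 and 14.84 at 1wk Dox, was above its No Dox range of 14.07 to 14.53, and the acinar index, 6.49 and 8.35, was below its range of 11.37 to 19.92. The endothelial index was also higher, 7.67 and 8.12 against 5.75 to 6.65 at No Dox and 15.17 or more in ECs, the cells in which *Slc48a1* scored highest at No Dox. With the 2 acinar-rich No Dox samples left out, *Slc40a1* was no longer called (1.16, adjusted p = 0.0736) and *Slc11a1* was (1.03, 0.00593), while *Hmox1*, *Slc48a1*, and *Ftl1* were called in both fits. The part of these other cells in the differences was not tested.

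**Figure D2:**
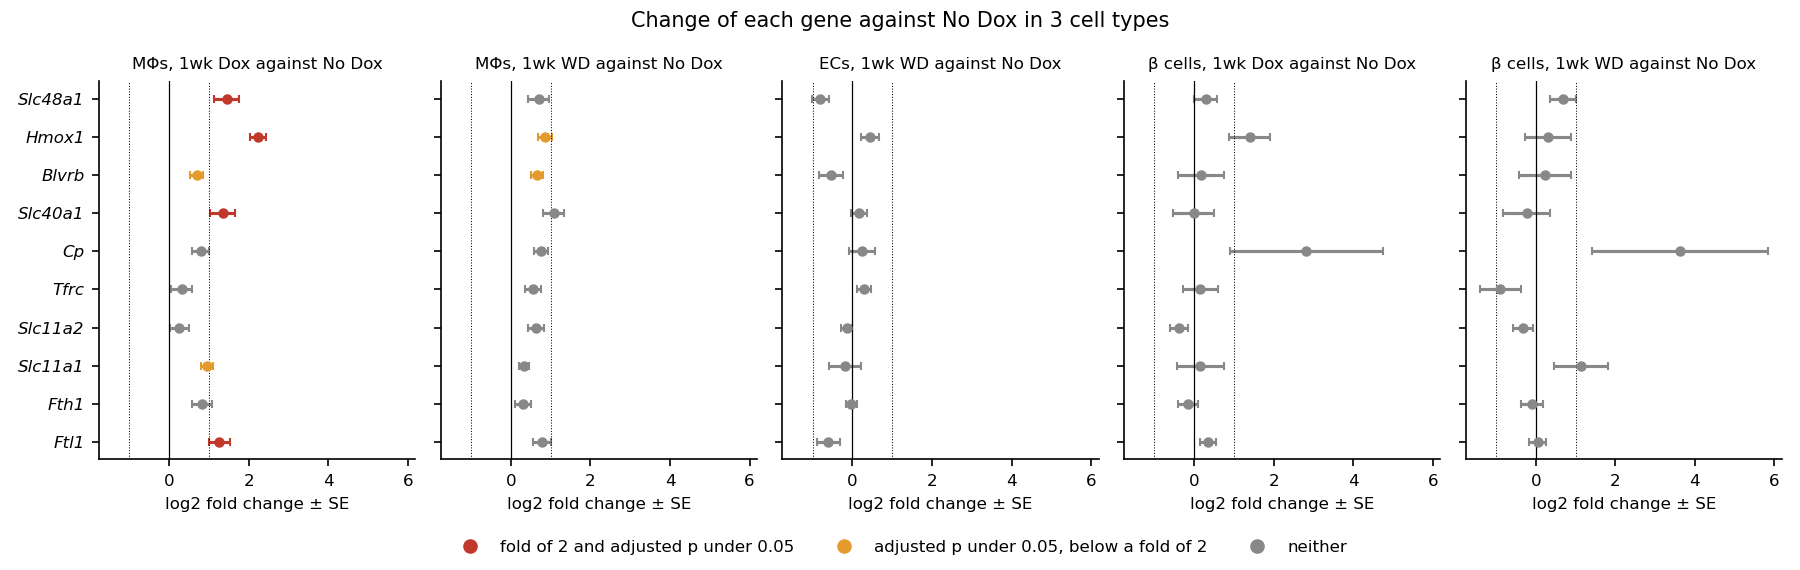
Log2 difference from No Dox of each gene in 5 comparisons (points ± SE), with called genes in red and genes past the adjusted p alone in orange. The 4 red points, Hmox1, Slc40a1, Ftl1, and Slc48a1, are all in MΦs at 1wk Dox.

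At 1wk WD, each of the 10 genes in MΦs was again above No Dox on average, with a median of 0.678 against 0.003 over all genes, but no gene passed both thresholds, where 0.42% of 15014 genes were called higher. At an unadjusted p under 0.05 with the fold of 2, 4.97% of all genes passed, among them *Slc40a1*. *Hmox1* and *Blvrb* passed the adjusted p without a 2-fold change, as did 0.793% of genes on the higher side.

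*Hmox1* scored 4840, 6094, 4163, and 6101 at 1wk WD, all above No Dox and all below 1wk Dox. With *Blvrb* and *Ftl1* it was 1 of 3 members whose 1wk WD samples all exceeded No Dox, as 4.98% of genes did. It was 1.81-fold above No Dox (0.86, SE 0.17, adjusted p = 0.034) and fell by 1.37 on the log2 scale from 1wk Dox (SE 0.21, 0.386-fold, adjusted p = 0.0359). It was the 1 member among the 0.0666% of genes called lower between these times. *Blvrb*, by contrast, scored 2021, 1943, 1863, and 2371, in the range of its 1wk Dox scores, and differed from No Dox by 0.66 (SE 0.14, adjusted p = 0.0429) and from 1wk Dox by -0.03. The fall of *Hmox1* was not called when any 1 of the 6 samples was left out, with adjusted p from 0.05003 to 1, nor with no filter on low scores or no trend of the spread. The macrophage index at 1wk WD, 14.81 to 14.92, was again above its No Dox range, and the acinar index, 14.27, 7.58, 7.43, and 6.99, was below its No Dox range of 11.37 to 19.92 in all but replicate 1. The part of these cells was not tested.

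The exporter gene *Slc40a1* and the ferroxidase gene *Cp* also stood near their 1wk Dox level. *Slc40a1* scored 4261, 5283, 4412, and 7954, overlapping No Dox through No Dox replicate 3 (4332), and differed by 1.08 from No Dox (SE 0.26, adjusted p = 0.0657) and by -0.26 from 1wk Dox. *Cp* scored 2056, 2730, 2788, and 3171 (0.76 above No Dox, SE 0.18, adjusted p = 0.0584, and -0.03 from 1wk Dox). Neither was called. Without No Dox replicate 3, whose GC-rich genes were low, *Slc40a1* was called higher at 1wk WD (1.34, adjusted p = 0.0149), as it was after a GC correction (1.15, 0.0389).

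Group means of heme transport and storage genes lay between the 2 other times. *Slc48a1* scored 1098, 1604, 1418, and 1841 (0.70 above No Dox, adjusted p = 0.187), *Ftl1* 36985, 46587, 39835, and 44486 (0.79, 0.0973), and *Fth1* 67336, 85406, 66742, and 73894 (0.31, 0.451). All 4 samples were below both 1wk Dox samples for each of these genes and for *Slc11a1* (7527, 7191, 6188, and 7424), as for 16.6% of all genes, and none of these differences was called. With No Dox replicates 2 and 4 left out, *Hmox1* (1.07), *Ftl1* (1.19), and *Slc48a1* (1.09) were called higher at 1wk WD. *Slc11a2* scored 3102, 3274, 2862, and 2204 and *Tfrc* 620, 849, 782, and 515, differences of 0.63 and 0.55 from No Dox that were not called.

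Among the other pathway genes tested in MΦs at 1wk Dox, 2 of 51 were called higher and none lower (1.61% and 0.653% of all genes), with a median of 0.193, and at 1wk WD 1 was called higher (0.42% of all genes), with a median of 0.031. *Spic* was the 1 called at both times. It scored 544, 1118, 1903, and 1002 at No Dox, then 3837 and 3360 with Dox and 3246, 4152, 2301, and 3159 after withdrawal. No treated sample reached down to No Dox, and the rises were 3.46-fold (1.79, SE 0.37, adjusted p = 0.0206) and 3.03-fold (1.60, SE 0.30, 0.0286). The iron-sulfur scaffold gene *Iscu* scored 610, 639, 638, and 1010 and then 1527 and 1404, a rise of 1.05 (adjusted p = 0.0249) that was not called without No Dox replicate 1, 2, or 3 (0.98 to 1.00) or without either 1wk Dox sample. *Spic* was not called at 1wk Dox without either 1wk Dox sample (1.69 and 1.89), nor at 1wk WD in 5 of the 8 fits without a sample, those without No Dox replicate 4 or any 1wk WD sample. Neither call on *Spic*, nor that on *Iscu*, was made with no filter on low scores, with no trend of the spread, or with only the 2 groups in the fit (adjusted p 0.05106 to 0.152), and *Iscu* fell short of 2-fold after the GC correction (0.94).

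By list at 1wk Dox, members included, the largest median was that of iron storage, delivery, and export (0.874, 7 of 7 genes above 0, 2 called). Heme breakdown and transport had a median of 0.426 (8 of 11 above 0, 2 called), the heme-responsive factors 0.392 (4 of 5, 1 called), iron uptake 0.277 (7 of 12, none called), heme synthesis 0.237 (7 of 9, none), iron sensing 0.155 (5 of 9, none), and mitochondrial iron 0.075 (4 of 8, 1 called). Without the members, the median of heme breakdown and transport was 0.013 (5 of 8 above 0, none called), that of iron uptake -0.05 (4 of 9, none), and that of iron storage, delivery, and export 0.874 (3 of 3, none). Past the adjusted p but under 2-fold were the ferritinophagy receptor *Ncoa4* (0.96, adjusted p = 0.0176) and *Trf* (0.96, 0.0439). So was *Fbxl5*, which targets the iron regulatory protein encoded by *Ireb2* for breakdown when iron is present and which differed by -0.68 (adjusted p = 0.0354). *Cd163* differed by 0.00 and *Bach1* by 0.15, neither called. The hepcidin genes were not called either. *Hamp* scored 4, 721, 1, and 80 at No Dox and then 4 and 1, and *Hamp2* 13, 5109, 4, and 560 and then 1 and 1, each highest in the acinar-rich No Dox replicates 2 and 4.

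**Figure D3:**
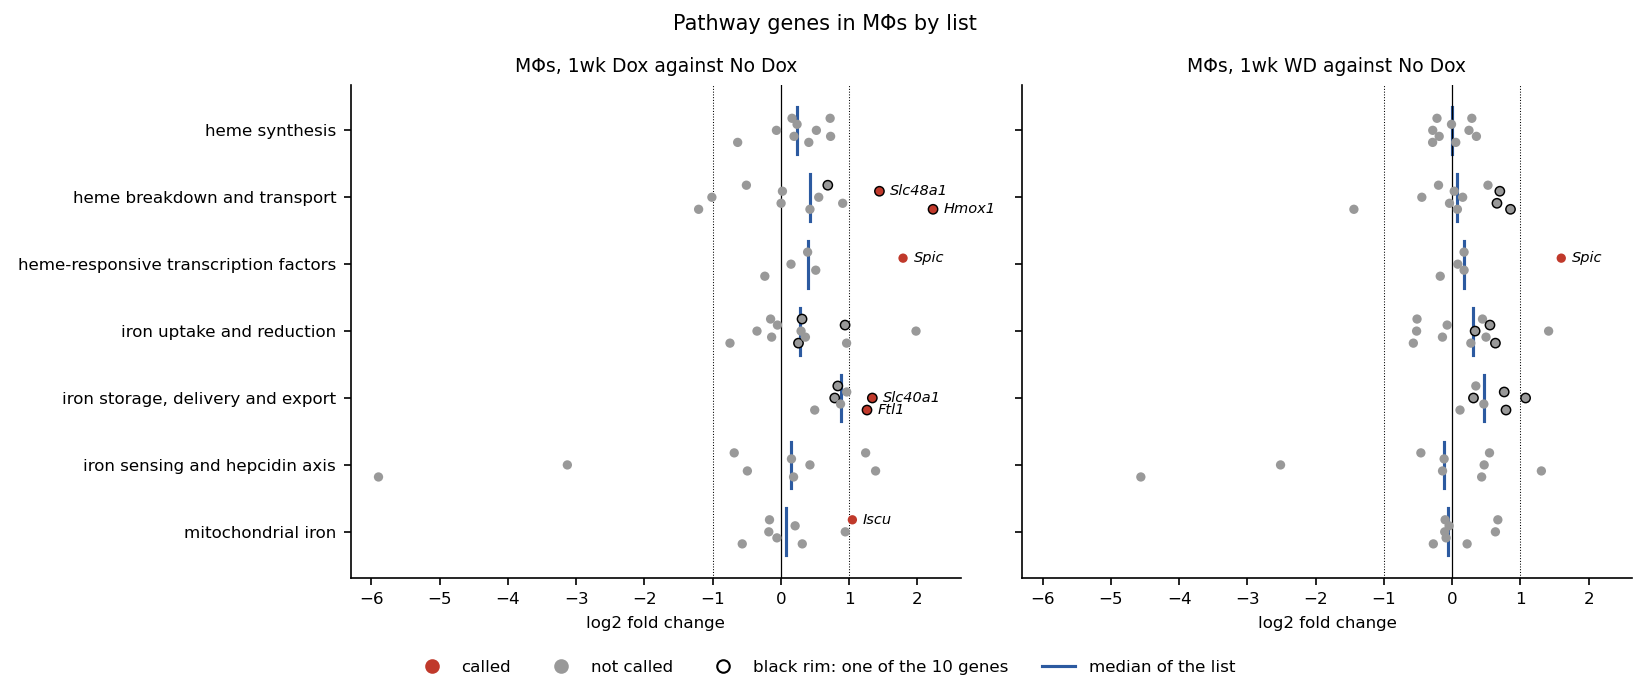
Log2 difference of each tested gene of the 7 pathway lists in MΦs at 1wk Dox and 1wk WD against No Dox, a point per gene, called genes in red, members outlined in black, and list medians as vertical lines. At 1wk Dox the list medians run from 0.075 (mitochondrial iron) to 0.874 (iron storage, delivery, and export).

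In ECs at 1wk WD, none of the 10 genes was called against No Dox, where 1.76% of 14167 genes were, and the median was -0.087 against 0.003 over all genes. At the fold of 2 with an unadjusted p under 0.05, 4.79% of genes and none of the members passed. The acinar index of ECs was 12.27 to 17.2 at No Dox and, after withdrawal, 12.56 in replicate 1 and 5.25 to 6.5 in the others. Their endothelial index was 15.45 to 15.63 and then 15.17 to 15.32, lower in every sample, and their pericyte index 6.67 to 7.56 and then 7.46 to 9.4. The part of these shifts in the members' values and in the test of responses was not tested. *Slc48a1* came nearest. It scored 1932, 2001, 961, 973, and 1702 at 1wk WD, each below the No Dox range of 2449 to 2586, and differed by -0.81 (SE 0.22, adjusted p = 0.0612). All 5 samples below all 4 was seen for 4.91% of genes. Its 2 lowest values were in replicates 3 and 4, the samples whose GC-rich genes were low, and its transcript GC content of 56.1% is higher than that of 82.5% of genes. Without both samples the difference was -0.42 (adjusted p = 0.031), and after the GC correction -0.68 (0.0443), still under 2-fold.

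*Ftl1*, with a GC content of 58.1%, had the same 2 samples at its bottom, with 4316, 4648, 2625, 1485, and 4020 against 3995 to 5586 at No Dox (-0.60, SE 0.28, adjusted p = 0.232, and -0.15 without both samples). *Blvrb* scored 262, 220, 105, 129, and 291 against 224 to 317 (-0.55, adjusted p = 0.298), once more lowest in these replicates. *Hmox1* scored 348, 462, 235, 252, and 357 against 169 to 273, a difference of 0.44 (SE 0.24, adjusted p = 0.289) with overlapping groups. For the other 6 members the differences lay between -0.19 (*Slc11a1*) and 0.28 (*Tfrc*). *Slc11a1* scored 18 to 48, *Slc40a1* 169 to 282, *Cp* 172 to 428, *Fth1* 4710 to 6095, *Slc11a2* 798 to 1190, and *Tfrc* 254 to 317.

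The single 1wk Dox EC sample gives values without a test. *Cp* was the only member more than 2-fold from the No Dox mean (98 against 120 to 299, -1.18), as were 10.7% of 14047 genes. *Blvrb* at 148 lay below its No Dox range of 224 to 317, and *Hmox1* at 357 above its range of 169 to 273. *Slc48a1* scored 2639, *Slc40a1* 156, *Fth1* 4924, *Ftl1* 4290, *Tfrc* 265, *Slc11a2* 1273, and *Slc11a1* 29, and each of these 7 differed from the No Dox mean by less than 0.35.

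**Figure D4:**
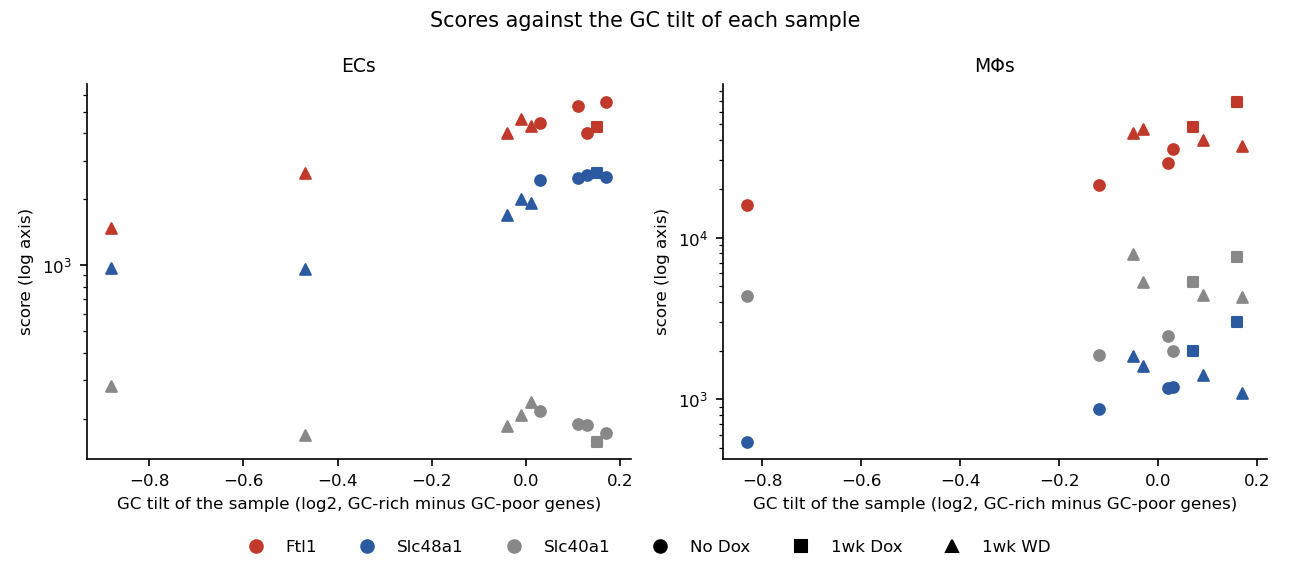
Score of Ftl1, Slc48a1, and Slc40a1 in each EC and MΦ sample against that sample's GC tilt, the log2 score of the genes highest in transcript GC content minus that of the lowest. EC 1wk WD replicates 3 and 4 (tilt -0.47 and -0.88) hold the lowest EC values of Slc48a1 and Ftl1, and No Dox MΦ replicate 3 (-0.83) the lowest MΦ values of both and the highest No Dox MΦ value of Slc40a1.

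Whether MΦs and ECs differed in their response at 1wk WD was tested directly as the difference between the changes from No Dox. It was positive for 10 of 10 genes, with a median of 0.658 against -0.007 over all genes, and 1 gene was called, where 0.609% of 15603 genes were called on this side. That gene was *Slc48a1*, at 1.51 (SE 0.37, adjusted p = 0.0427), with a change of 0.70 in MΦs and -0.81 in ECs. *Ftl1* (1.39, SE 0.41, adjusted p = 0.0763) and *Blvrb* (1.21, SE 0.36, 0.0814) came next and were not called. The samples with tilted GC content, 1wk WD EC replicates 3 and 4 and No Dox MΦ replicate 3, all enter this test. The call on *Slc48a1* was lost without 11 of the 17 samples in turn (any No Dox EC sample, 1wk WD EC replicate 3 or 4, No Dox MΦ replicate 1 or 3, or 1wk WD MΦ replicate 2, 3, or 4) and without both tilted EC samples (1.12, adjusted p = 0.108), and held after the GC correction (1.34, 0.0275).

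Of the other pathway genes tested in ECs at 1wk WD, 2 of 48 were called higher and none lower, where 1.76% of all genes were called in either direction. *Lrp1* scored 187, 221, 266, and 338 at No Dox and 1105, 476, 375, 944, and 725 at 1wk WD, without overlap (1.44, SE 0.30, adjusted p = 0.0228). *Steap4*, a ferric and cupric reductase, scored 202, 353, 195, and 740 and then 2260, 830, 699, 3155, and 1166, with overlap (2.10, SE 0.47, adjusted p = 0.0289). Both scored far higher in pericyte-rich β cell samples (*Lrp1* up to 26892 and *Steap4* up to 23404 at No Dox) than in ECs, and the pericyte index of ECs was 7.46 to 9.4 at 1wk WD against 6.67 to 7.56 at No Dox. The part of pericyte RNA in these changes was not tested. Without No Dox EC replicates 1, 2, or 3 in turn neither gene was called (adjusted p 0.0655 to 0.102), nor *Steap4* without 1wk WD replicate 1 (0.05028). Neither was called with no filter on low scores (0.158 and 0.196) or with no trend of the spread (0.0747 and 0.0952).

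In β cells no member was called in any comparison, and few or no genes were (0.0122% of 16346 genes at 1wk Dox against No Dox, and 0% in both comparisons with 1wk WD). The spread was wide, with a median residual SD of 0.582 on the log2 scale against 0.336 in MΦs and 0.278 in ECs. At the fold of 2 with an unadjusted p under 0.05, 4.04% of genes passed at 1wk Dox and 4.45% at 1wk WD, none of them members at 1wk WD.

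*Hmox1* was the 1 member that passed this looser rule at 1wk Dox. It scored 378, 302, 197, 298, and 209, all above the No Dox scores of 169, 38, 87, and 188 and above 67, 167, and 176 at 1wk WD. The difference from No Dox was 1.40 (SE 0.51, 2.63-fold, unadjusted p = 0.0191, adjusted p = 0.64), and 1.08% of genes had all 1wk Dox samples above all No Dox samples. Between 1wk WD and 1wk Dox it differed by -1.09 (SE 0.56, adjusted p = 0.814), with all samples lower, as for 2.01% of genes. The macrophage index of β cells was 5.65 to 6.77 at 1wk Dox and 5 to 8.08 at No Dox, and the endothelial index reached 12.37 at 1wk Dox against 8.73 at No Dox. The part of these cells in the *Hmox1* difference was not tested.

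*Cp* was low and high in the same β cell samples as the pericyte genes. It scored 22, 5, 4189, and 9438 at No Dox, 2650, 1442, 2331, 2622, and 1134 with Dox, and 10481, 6715, and 537 after withdrawal. Over the same samples *Pdgfrb*, a receptor of pericytes, scored 80, 66, 13692, and 49477, then 29295, 10492, 20841, 34404, and 6919, then 48280, 40295, and 3980. In both genes No Dox replicates 1 and 2 were lowest, and 1wk WD replicate 3 was the lowest of the rest. The *Cp* differences from No Dox, 2.83 (SE 1.93) and 3.63 (SE 2.20), were not called, and became 7.36 (adjusted p = 0.0014) and 8.16 (0.0015) when No Dox replicates 3 and 4 were left out. These larger sizes rest on No Dox scores of 22 and 5, near the lowest score of 1, and are uncertain. No Dox replicates 3 and 4 also had the highest acinar index, 20.22 and 19.6, against 16.11 and 11.66 in replicates 1 and 2, 3.74 to 10.55 with Dox, and 4.11 to 15.71 after withdrawal. The part of pericyte or acinar RNA in these values was not tested.

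*Slc11a1* in β cells was at its highest, 188 and 338, in No Dox replicate 4 and 1wk WD replicate 3, the samples with the highest macrophage index (8.08 and 8.59), and 35 to 113 elsewhere. *Tfrc* scored 1435, 2519, 1687, 3219, and 2469 with Dox and 588, 911, and 2154 after its withdrawal. Its differences were -0.89 (SE 0.51) from No Dox and -1.05 (SE 0.49) from 1wk Dox at 1wk WD, neither called. *Slc40a1* scored 801 to 2610 and 989 to 1680, inside the No Dox range of 581 to 3369. *Slc48a1* scored 638 to 1263 and then 926, 1107, and 1741, and *Blvrb* 73 to 238 and 84 to 283, against 435 to 928 and 52 to 308 at No Dox. The ferritins and *Slc11a2* overlapped between all 3 times, with *Fth1* at 4448 to 9901, *Ftl1* at 5410 to 9912, and *Slc11a2* at 1015 to 2711 over all β cell samples. None of the other pathway genes was called in β cells.

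**Figure D5:**
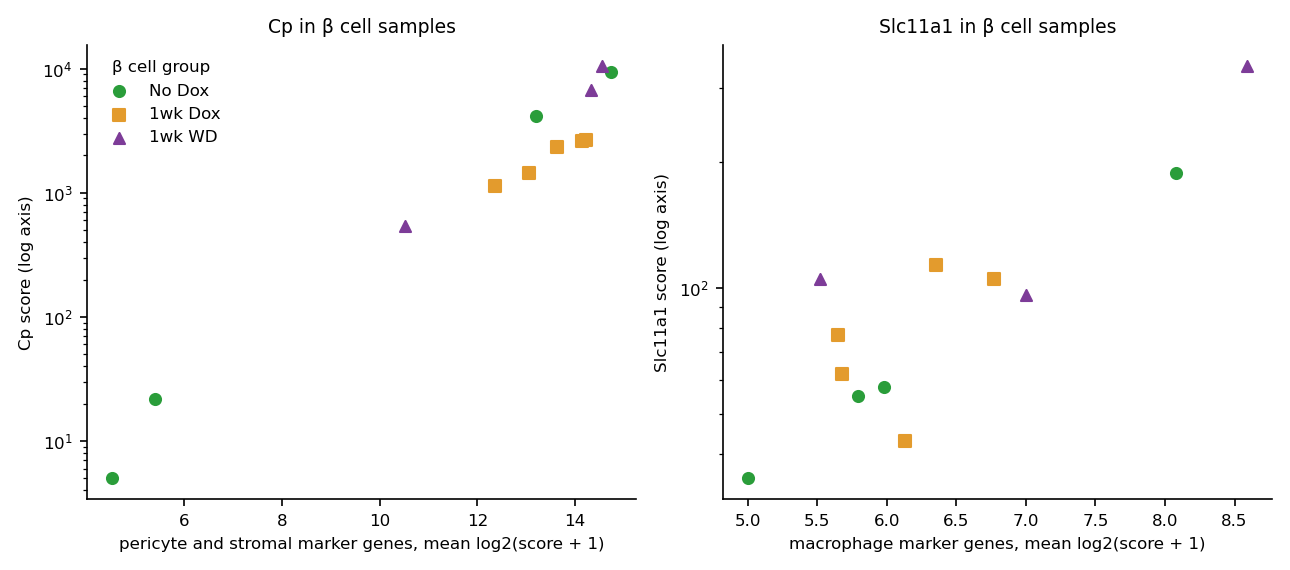
Score of Cp against the pericyte and stromal index, and of Slc11a1 against the macrophage index, in the 12 β cell samples (log score axis, index as mean log2(score + 1), time points by colour). The 2 No Dox samples with a Cp score of 22 and 5 have pericyte indices of 5.4 and 4.52, and all others are above 10.

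Over all 32 samples, the genes whose log2(score + 1) ran most like that of *Hmox1* were *Ctsb*, a lysosomal cathepsin (Pearson r = 0.977), *Lgmn* (0.957), and *Nup153* (0.953). Among those most like *Slc40a1* were *Tpd52* (0.966) and *Snx24* (0.965), and those most like *Cp* were *Pla1a* (0.961), *Timp2* (0.954), and *Enpp1* (0.938). These r are among the highest of 16968 genes, over points that share a cell type in groups. Like *Hmox1*, *Ctsb* had its highest group mean in MΦs at 1wk Dox (69970, against 23050 at No Dox and 41110 at 1wk WD).

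On mm9 the members lie on 7 chromosomes, and the table places each where GENCODE M1 does. *Hmox1* (ENSMUSG00000005413) is at chr8:77617490-77624495, *Slc48a1* (ENSMUSG00000081534) at chr15:97614786-97623123, and *Blvrb* (ENSMUSG00000040466) at chr7:28232997-28251163, all on the plus strand. *Ftl1* (ENSMUSG00000050708) is at chr7:52713314-52715254 on the minus strand and *Fth1* (ENSMUSG00000024661) at chr19:10057193-10059582 on the plus strand. *Slc40a1* (ENSMUSG00000025993, chr1:45964915-45982439, minus strand) shares its chromosome with *Slc11a1* (ENSMUSG00000026177, chr1:74421777-74432636, plus strand). *Cp* (ENSMUSG00000003617) is at chr3:19857054-19909145 and *Tfrc* (ENSMUSG00000022797) at chr16:32609006-32632880, both on the plus strand, and *Slc11a2* (ENSMUSG00000023030) at chr15:100218329-100255503 on the minus strand.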

How the data were processed

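RNA of sorted β cells, ECs, and MΦs was amplified with the NuGEN Ovation kit and sequenced as 50 bp paired-end reads, which the authors aligned to mm9 with TopHat 2.0. The deposited values are scores: the authors' TMM-normalized expression from Avadis NGS, as whole numbers from 1 up, for 22850 genes. The annotation and strand setting are not given in the sources used here. No read counts follow from scores, so depth, and the precision of low scores, is unknown. Of 38 sample columns 32 were used, and 6 of another series (1wk Dox ECs and MΦs) were not. Samples were grouped by their labels (one reads Bets, taken as β cells), whose replicate numbers are used here.

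For genes whose mean score reached 20 in a fitted group, limma 3.58.1 (R 4.3.3, trended empirical Bayes) was run on log2(score + 1). β cell and MΦ fits took all 3 times, the EC fit No Dox and 1wk WD, No Dox comparisons the 2 cell types, and the test of responses 4 groups. The code was tested on simulated data. Indices, counts, and figures used Python 3.11.15, pandas 2.3.3, numpy 2.4.6, and matplotlib 3.10.9.

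The members, lists, and alternatives were chosen with earlier results of these data known. Text names all members, pathway genes called in a comparison, at most 3 uncalled genes per list, and the 3 genes most like *Hmox1*, *Slc40a1*, and *Cp*. Not every called gene is named, and some results under this rule are not reported here. The alternatives were a pseudocount of 20, no filter, median-of-ratios scaling, no trend, adjusted p alone, the replicate number as a block, only the groups compared, each replicate left out, and No Dox β cell replicates 3 and 4 left out. A correction for GC content in 20 bins and leaving out the GC-tilted EC or acinar-rich MΦ samples were chosen after seeing the data.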

Additional observations from a re-analysis of the deposited data

Results flagged for a closer look

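In the test of the difference in response, *Slc48a1* at 1wk WD changed differently in MΦs and ECs, by 1.51 (SE 0.37, adjusted p = 0.0427), higher than No Dox on average in MΦs and lower in ECs.

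In a search for single samples that stand apart from the rest of their group, 60 pairs of a gene and a group of 4 or 5 samples were examined, and 3 had such a sample, about what the 1 in 20 pairs that chance gives would make. All 3 were in No Dox β cells. *Slc11a1* scored 188 in replicate 4 against 35 to 58 in the others, where the macrophage index was also highest of the group (8.08). *Slc11a2* scored 2711 in replicate 2 against 1391 to 1508. *Slc48a1* scored 435 in the same replicate against 872 to 928, and the GC tilt of that sample was -0.49 against -0.10 to 0.01 in the others of its group.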

How the results depend on the processing

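Of the counts of members called, 139 recomputed with another setting were within 1.5 times of the count reported and 38 were not, and 14 and 4 of those with settings chosen after seeing the data. In MΦs at 1wk Dox against No Dox, where 4 were called, 1 was called with no filter on low scores, with no trend of the spread, with only the 2 groups compared, and with the replicate number as a block, and 0 to 4 when a replicate was left out. *Hmox1* was the most stable of these, at 2.00 to 2.46 with adjusted p of 0.000497 to 0.0806 over 15 alternatives and below the call in 1 of them, where *Slc40a1* (1.09 to 1.60) was in 9, *Slc48a1* (1.15 to 1.84) in 7, and *Ftl1* (1.00 to 1.66) in 7. At 1wk WD against No Dox, where none was called, 2 were with the adjusted p alone, 1 after the GC correction, 3 without the acinar-rich No Dox replicates 2 and 4, and 0 to 1 when a replicate was left out. At 1wk WD against 1wk Dox the 1 call, *Hmox1*, became 0 with no filter, with no trend, with the block, and without each replicate (0 to 0). In the test of responses, 1 call became 0 with no filter, with no trend, and without the GC-tilted EC samples, 2 without the acinar-rich MΦ samples, and 0 to 2 when a replicate was left out. In ECs at 1wk WD no alternative gave a call (0 in each).

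In β cells, leaving out No Dox replicates 3 and 4 raised the count from 0 to 1 (*Cp*) at both times against No Dox, and in No Dox ECs against β cells from 3 to 6, and leaving out single replicates there gave 3 to 5. One direction reversed, that of *Cp* in No Dox ECs against β cells, which was -0.28 and became 4.26 without these replicates. The cause of these changes was not tested. Leaving aside the alternatives added after seeing the data, the single genes kept their direction and side of the call in 2364 recomputed values, lost the call in 125, and gained it in 23. In 48 more, of genes without a call or a test, the value changed sign or moved by more than the spread between replicates.

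The replicate numbers did not pair the samples of a cell type across times. Same-numbered ones had correlations of their deviations from -0.519 to 0.362 (median 0, over 0.1 in 6 of 20 pairs), and other pairs -0.631 to 0.585. Between cell types, same-numbered samples of any time ran from -0.201 to 0.404 (over 0.1 in 13 of 67 pairs) and others from -0.315 to 0.26 (26 of 251). ECs and MΦs of the same time and number gave 0.187, 0.404, 0.069, and -0.124 at No Dox. At 1wk WD they gave 0.148, 0.144, -0.092, and 0.108. β cells of the same time and number as ECs or MΦs gave -0.201 to 0.15. The main tests between cell types took no account of such pairs. The table's header numbers 9 of the 32 samples differently, and its numbers did not pair those of a cell type either (-0.631 to 0.374, median -0.108, over 0.1 in 4 of 14 pairs). With the labels' numbers as the replicate block, *Hmox1* in MΦs at 1wk Dox was at 2.26 (adjusted p = 0.0147), and apart from the counts given above no count of members moved by over 1.5 times. In MΦs the block also ended the calls on *Spic* at both times (adjusted p = 0.275 and 0.0658) and on *Iscu* (0.459). The 2 MΦ samples at 1wk Dox, the single EC sample, and the spread of β cells limit what these comparisons can show, and the unknown depth limits what low scores such as those of *Slc11a1* in ECs can show.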
